A study of Homo sapiens with 24 samples.

Results

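Cells that received a mature CasRx guide were compared with cells that received a precursor guide, across 12 of the 24 poly(A) RNA libraries of the series. The rule took every library with one of these labels and used no measured value: 6 came from cells with a gRNA expression plasmid and 6 from cells with a pre-gRNA expression plasmid. All 12 shared the human cell line, labelled SH-SY5Y (a neuroblastoma line), the co-transfected pcDNA3_CasRx-GFP vector, the Lipofectamine 3000 reagent and a harvest 48 h after transfection. Each guide form had 2 arms of 3 libraries. In the KD arm (gRNA_CDR1as_KD and pre-gRNA_CDR1as_KD) the guide was directed at CDR1as, the circular RNA also called ciRS-7. In the NTC arm the guide was a non-targeting control. The remaining 12 libraries of the series came from an agoshRNA vector and from a synthetic guide. The labels do not say whether the 3 libraries of a group came from separate cultures, so p-values measure the spread between these libraries, which may in part be technical. The expression plasmids were transient, and the share of cells that took them up is not given.

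CasRx is a Cas13d nuclease that is led to an RNA by a guide made of a direct repeat and a spacer complementary to the target. In a bacterial CRISPR array the guides are transcribed as one precursor, and Cas13d itself cuts this precursor at the repeats into mature guides. A plasmid can therefore supply the guide already in its mature form (gRNA) or with a further repeat behind the spacer (pre-gRNA), which leaves the last cut to the nuclease. Whether the plasmids used here have exactly this layout is not stated in the labels. Active Cas13 can also cut bystander RNA, and double-stranded or foreign RNA can be sensed by innate immune receptors, so the transcriptome is a common place to look for unwanted effects of either form. The deposited data allow the question whether messenger RNA levels differ between cells given one form or the other.

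Read totals were 13226742 to 14554087 counts in the gRNA libraries and 15234523 to 16233777 in the pre-gRNA libraries, without overlap (exact two-sided permutation test, p = 0.00216 over 6 against 6 libraries, 0.0238 after Benjamini-Hochberg adjustment over 11 library measures). KD and NTC libraries of one form and column letter resembled each other to differing degrees. The correlation across genes of their deviations from the group means was 0.42 in gRNA B, 0.64 in pre-gRNA A and 0.84 to 0.96 otherwise. Over 3 against 3 letter means the exact permutation test gave the smallest value it can reach, p = 0.1. Of the other 10 measures, among them the number of genes detected, the mitochondrial share and the snoRNA share, none had an adjusted p below 0.795. Levels below are given as normalised counts, that is counts divided by DESeq2 size factors. These factors did not simply follow the read totals. Pre-gRNA KD B had 15311068 counts and a factor of 0.881, and gRNA KD C had 13835078 counts and a factor of 1.01. Markers of the labelled cell type were in part absent. PHOX2A, STMN2 and ELAVL4, genes of noradrenergic neuroblasts and neurons, had at most 5, 3 and 2 counts in any of the 12 libraries. GATA2 (379 to 789 normalised counts), HAND1 (212 to 586) and TBX2 (199 to 464) were present. Of a list of kidney-lineage markers described in HEK293 cells, HOXA9 was at 911 to 1670 and PAX2 at 134 to 244, while PAX8 had at most 1 count. Both guide forms shared this marker pattern, and neither marker list had a member called.

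No gene was called between the 2 guide forms. Among 19430 genes tested with the Wald test of DESeq2, with the arm as covariate, 0 (0%) had a Benjamini-Hochberg adjusted p below 0.05, and 106 (0.546%) had an unadjusted p below 0.05. Without any difference, a calibrated test would give a share of 0.05. The share found was smaller. Many genes varied together across these libraries, as given below, so this single share cannot show whether the test was calibrated. The 106 are not read as leads, and 0 called genes do not show that the forms are alike. The quasi-likelihood test of edgeR called 0 genes (111 unadjusted) and limma-voom called 0 (103 unadjusted). The number of 106 depended on single libraries. Leaving out gRNA KD A raised it to 760, pre-gRNA KD C to 187 and pre-gRNA NTC C to 171. Leaving out gRNA NTC B lowered it to 56, pre-gRNA NTC A to 52 and gRNA KD B to 65, and the number of called genes was 0 each time. Summing the counts of KD and NTC for each setup and letter, so that 3 units stood against 3, gave 0 called genes and 12 (0.0618%) unadjusted. With the column letter as a block across both forms, 0 were called and 244 (1.26%) had an unadjusted p below 0.05.

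The differences were small and their intervals bounded many of them. Over the 19432 genes that passed the filter on low counts, the median log2 difference (gRNA minus pre-gRNA) was 0, and 90% of the genes lay between −0.35 and 0.35. Of these genes 9697 had a positive and 9735 a negative difference. Below, list members with higher or lower means in gRNA are counted by the sign of this fitted difference. Members of a list can vary together across libraries, so such counts are not independent votes. The median standard error was 0.312, which gives a 95% interval of 0.61 on either side on the log2 scale. For 14716 genes (75.7%) the whole interval lay within a 2-fold difference in either direction. Among the 14030 genes averaging 50 counts or more this share was 84.7%, and 1 gene had an estimate beyond 2-fold. With the letter pairs as units it was 48.9% of the 14030 genes. Differences smaller than these intervals were not detectable with these libraries.

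Libraries of one guide form differed from each other far more than the guide forms did. Over the 14030 genes averaging 50 counts or more, guide form took 3.75% of the sum of squares of log2 counts (1 degree of freedom), the column letter within a form took 87% (4 degrees of freedom), the arm within a form 3.33% (2) and the remainder 5.89% (4). The column letters A, B and C are those of the deposited count table; nothing in the labels says what they stand for. The letter was the largest of the 3 named terms for 13886 genes, the arm for 94 and the guide form for 50. This ranking used sums of squares not divided by their degrees of freedom, which favours the letter over the guide form. The first principal component held 83.3% of the variance. Its gene loadings followed GC content across genes (Spearman rho of −0.8 over 13864 genes, a description across genes and not across replicates).

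The 4 C libraries, of both forms and both arms, lay together at one end of the first component, at scores of 50.4 to 68.4. The pre-gRNA B libraries lay at the other end, at −86 for KD and −83.1 for NTC, and gRNA KD A followed at −72.9. The 2 gRNA B libraries lay between, at 16.3 and 6.43, as did gRNA NTC A at −24.8 and the pre-gRNA A libraries at 12.7 and −14.6. The correlation across genes of the deviations from the group means averaged 0.93 between gRNA C and pre-gRNA C, 0.77 between gRNA A and pre-gRNA B, −0.02 between gRNA A and pre-gRNA A and 0.09 between gRNA B and pre-gRNA B. On these averages letter C carried a like deviation in both forms, and letters A and B did not. Whether a letter marks a culture, a day or a sequencing run was not tested.

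**Figure D1:**
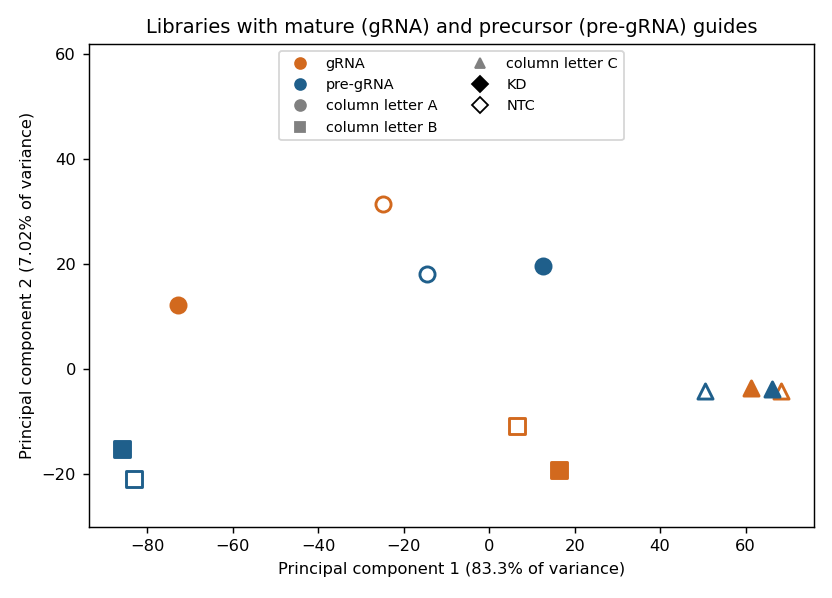
Scores of the 12 libraries on the first and second principal components (83.3% and 7.02% of the variance). Colour gives the guide form, the symbol gives the column letter, and filled symbols are KD and open symbols NTC. The C libraries of both forms fall together, the B libraries of the 2 forms fall apart, and the A libraries are spread, with the NTC A libraries of both forms near each other.

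Because of this, the size of the guide-form difference depended on the letter. Within letter C the middle 90% of the 14030 genes lay between −0.19 and 0.23 on the log2 scale and 0 genes exceeded 1. Within letter A the range was −0.89 to 0.45 and 385 genes (2.74%) exceeded 1 in either direction. Within letter B it was −1.04 to 1.5 and 3460 genes (24.7%) exceeded 1. Letters A and B had opposite signs for 12615 of the 14030 genes, and 710 genes had the same sign in all 3 letters. A DESeq2 fit within letter B, with KD and NTC as the only replicates, called 8918 of 17183 genes (51.9%), while the same fit called 0 of 18057 in letter A (758 unadjusted, 4.2%) and 0 of 18271 in letter C (15 unadjusted, 0.0821%). The letter B calls compare 2 gRNA with 2 pre-gRNA libraries whose first component scores differ as given above, and guide form and library cannot be told apart within one letter.

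**Figure D2:**
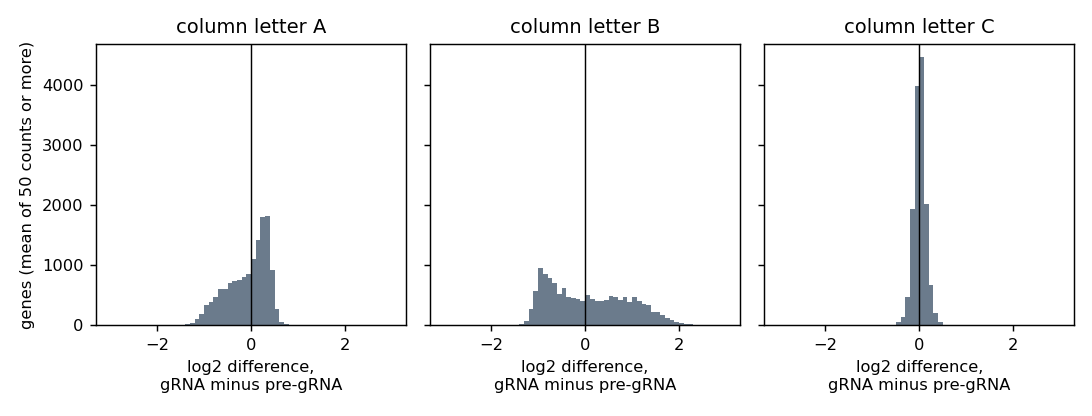
Number of genes (vertical axis) by log2 difference between gRNA and pre-gRNA libraries (horizontal axis), within column letters A, B and C, for the 14030 genes averaging 50 counts or more. The distribution is narrow in C, skewed to negative values in A and broad in B, where the 5th and 95th percentiles were −1.04 and 1.5.

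At the targeted locus on the X chromosome no difference between the guide forms was detected. LINC00632, the host transcript of ciRS-7 (hg19, X, 139791932 to 139854844, plus strand), had 21.1, 55.6 and 58.4 normalised counts in gRNA KD libraries A, B and C and 41.9, 63.9 and 55.7 in gRNA NTC. It had 42.8, 62.4 and 63.6 in pre-gRNA KD and 39.8, 43.2 and 61.4 in pre-gRNA NTC. The forms overlapped, and the lowest library was gRNA KD A. The log2 difference was −0.08 (SE 0.28, 95% interval −0.63 to 0.48, DESeq2 unadjusted p = 0.787). In neither form did the KD libraries separate from the NTC libraries of the same form.

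CDR1, the protein-coding annotation on the opposite strand (X, 139864570 to 139867036), had 0, 8 and 18 counts in gRNA KD A, B and C and 3, 10 and 20 in gRNA NTC. It had 9, 3 and 20 counts in pre-gRNA KD and 4, 5 and 18 in pre-gRNA NTC. In each group the C library was highest. The annotation CDR1-AS (X, 139865341 to 139866825) lies within CDR1, had 0 to 15 counts in gRNA and 3 to 16 in pre-gRNA libraries, and in non-stranded libraries its reads cannot be told apart from those of CDR1. The log2 differences were 0.17 (SE 0.67) for CDR1 and 0.03 (SE 0.64) for CDR1-AS, intervals too wide to bound a 2-fold difference. A circular RNA has no poly(A) tail, so these counts are no measure of ciRS-7 itself. Of 30 listed targets of miR-7, the microRNA that ciRS-7 binds, 0 were called and the median difference was 0.08. PARP1, a DNA repair enzyme and the most abundant of them, had a difference of 0 (SE 0.14).

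Genes that sense foreign RNA showed no call. Of 30 genes of RNA sensing and the interferon response, 19 passed the filter, 0 were called and 0 had an unadjusted p below 0.05; the median difference was −0.02, beside 0 over all genes. The remaining 11 were too low to test under either form. ADAR, which edits double-stranded RNA, was the most abundant. It had 2580, 3830 and 3730 normalised counts in gRNA KD A, B and C, 4200, 3900 and 3880 in gRNA NTC, 3570, 2050 and 3810 in pre-gRNA KD and 3020, 1910 and 3870 in pre-gRNA NTC. The 2 lowest libraries were pre-gRNA B, and the difference was 0.27 (SE 0.23). EIF2AK2, the kinase PKR that halts translation on double-stranded RNA, differed by 0.15 (SE 0.38), and DDX58, the receptor RIG-I, by 0.09 (SE 0.41). ISG15, an interferon-induced ubiquitin-like protein, ranged from 35.2 to 58.6 in gRNA and from 41.9 to 90.4 in pre-gRNA libraries, a difference of −0.44 (SE 0.29, DESeq2 unadjusted p = 0.128). None of these 4 differences exceeded 2 standard errors.

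Stress programmes gave the same picture, with 1 member below an unadjusted p of 0.05. In the integrated stress response, through which ATF4 restores amino acid supply when translation is cut back, 22 of 22 genes were tested, 0 were called, 16 had lower means in gRNA and the median was −0.16. ATF4 itself (hg19, chromosome 22, 39915700 to 39918690) had 17700, 17200 and 12600 in gRNA KD A, B and C, 13900, 17500 and 12100 in gRNA NTC, 12100, 23800 and 12400 in pre-gRNA KD and 13700, 23800 and 12700 in pre-gRNA NTC. Its highest libraries were both pre-gRNA B, and the difference was −0.12 (SE 0.25). SESN2, a stress-induced inhibitor of mTORC1 signalling (chromosome 1, 28586038 to 28609002), had 2070, 1590 and 1870 in gRNA KD and 1770, 2210 and 2030 in gRNA NTC. In pre-gRNA it had 1720, 3540 and 2080 in KD and 2460, 3800 and 2210 in NTC. The groups overlapped and the pre-gRNA B libraries were again highest; the difference was −0.45 (SE 0.22, DESeq2 unadjusted p = 0.0439, adjusted p = 1), made up of −0.1 within letter A, −0.97 within B and −0.14 within C.

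Of 20 tested heat-shock genes, 0 were called and the median was −0.07. HSP90AB1, a constitutive chaperone, had 27900 to 39200 normalised counts in gRNA and 29200 to 37300 in pre-gRNA libraries, a difference of 0.06 (SE 0.15) whose interval of −0.22 to 0.35 excluded a 2-fold difference. That interval takes the 12 libraries as separate, and with letter pairs as units the SE was 0.31. DNAJB1, a heat-induced co-chaperone, differed by −0.21 (SE 0.34), and the inducible pair HSPA1A and HSPA1B, nearly identical genes whose reads may be split, by −0.01 (SE 0.52) and −0.06 (SE 0.52). HSPA6 stayed below the filter, with 1 to 11 counts in gRNA and 0 to 12 in pre-gRNA libraries. Of 18 genes of the endoplasmic reticulum chaperones and unfolded protein response, 0 were called and the median was 0.04. HSPA5, the chaperone BiP, ranged from 9200 to 36500 in gRNA and from 9590 to 21500 in pre-gRNA libraries, with the highest value in gRNA KD B and the lowest in gRNA KD A, a difference of 0.32 (SE 0.34). Among 20 p53 targets 0 were called, and the one with the smallest p was AEN, a p53-induced exonuclease, at −0.61 (SE 0.34, DESeq2 unadjusted p = 0.0771). Among 23 tested immediate early genes 0 were called; FOSL1, an AP-1 subunit, had 3.96 to 22.3 normalised counts in gRNA and 6.27 to 37.3 in pre-gRNA libraries and differed by −1.01 (SE 0.54, DESeq2 unadjusted p = 0.0619).

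No metabolic gene of the lists was called, and the sign of the list medians varied with the letter. Of 18 glycolytic genes 15 had lower means in gRNA, 0 were called and 0 had an unadjusted p below 0.05; the median difference was −0.27. GAPDH (chromosome 12, 6643093 to 6647540) had 108000, 92800 and 53400 normalised counts in gRNA KD A, B and C and 67500, 87100 and 51900 in gRNA NTC. In pre-gRNA it had 59400, 160000 and 54100 in KD and 71600, 164000 and 57900 in NTC. The 2 pre-gRNA B libraries stood above the other 10, and the remaining pre-gRNA values lay within the gRNA range. The difference was −0.31 (SE 0.36, interval −1 to 0.39), and ALDOA, the aldolase of glycolysis, differed by −0.43 (SE 0.41). By letter, the glycolytic median was 0.33 in A, −0.86 in B and −0.06 in C, so its sign was not shared. With 3 principal components as terms the median was −0.01. The components were computed from these same libraries, and the fit removes differences that follow them. Medians from that fit, here and for the lists below, are therefore no separate evidence about the guide forms.

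**Figure D3:**
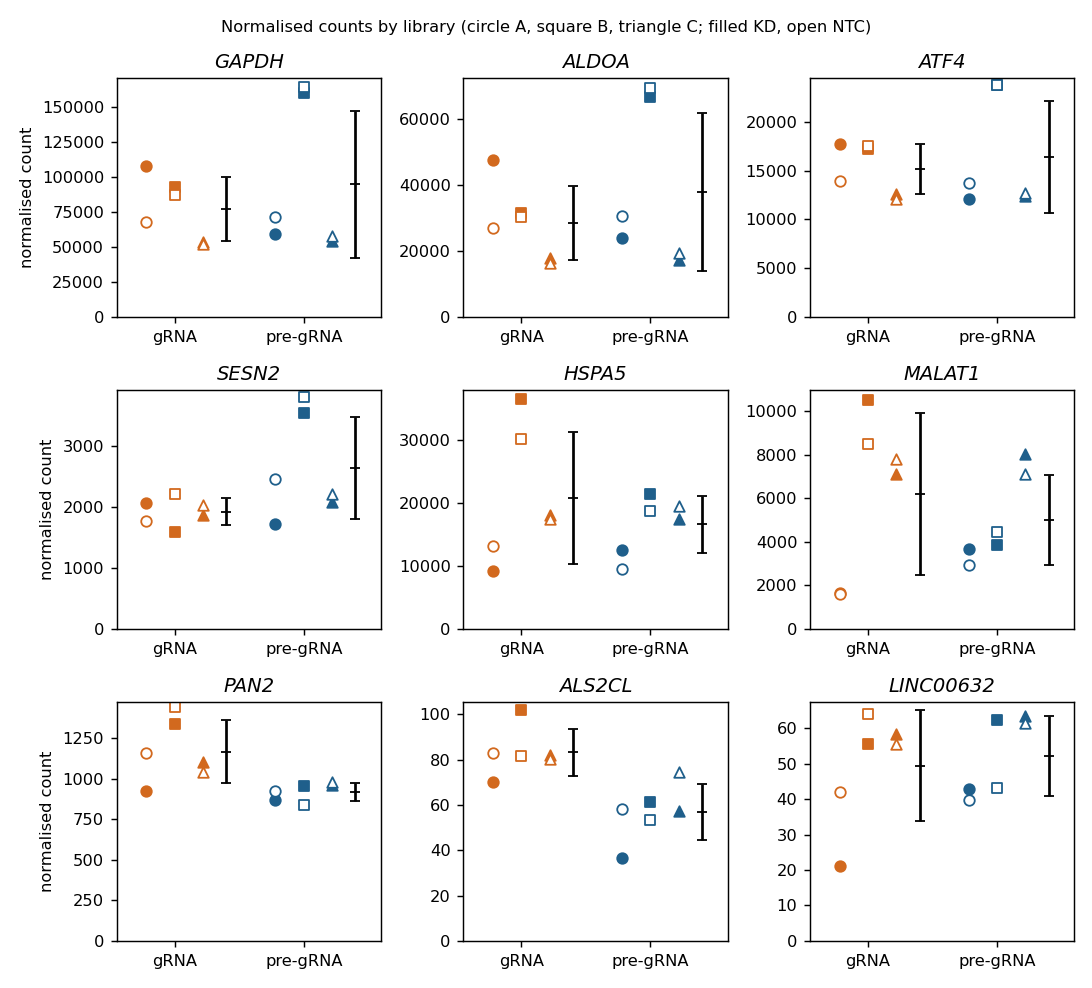
Normalised counts (vertical axis, linear, from 0) of 9 genes in the gRNA and pre-gRNA libraries. Circles, squares and triangles are column letters A, B and C, filled symbols are KD, open symbols are NTC, and the black bar beside each form is the mean with 1 SD over its 6 libraries. The pre-gRNA B libraries are highest for GAPDH, ALDOA, ATF4 and SESN2, and the 2 forms overlap for every gene drawn.

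Subunits of the respiratory chain encoded in the nucleus had lower means in gRNA for 69 of 77 genes, with a median of −0.14, 0 called, medians of 0.33, −0.6 and −0.07 within letters A, B and C, and 0.01 with the 3 components as terms. Cytosolic ribosomal proteins had lower means for 60 of 84 genes, with a median of −0.09, 0 called, 0.33, −0.36 and −0.06 by letter, and 0.03 with the 3 components. RPS2, a small-subunit protein, ranged from 52600 to 148000 in gRNA and from 54100 to 200000 in pre-gRNA libraries (difference −0.32, SE 0.39). For 75 of these 84 genes the interval lay within a 2-fold difference in the fit that takes the 12 libraries as separate. With letter pairs as units the SE of RPS2 was 0.5. The 13 messenger RNAs encoded in mitochondria had higher means in gRNA for 12 genes, with differences from −0.01 to 0.11 and a median of 0.06; 0 were called, and all 13 had intervals within a 2-fold difference. MT-CO1, a subunit of cytochrome oxidase, had 84800 to 131000 in gRNA and 92600 to 122000 in pre-gRNA libraries. Its SE was 0.17, and 0.31 with letter pairs as units. Intervals within a 2-fold difference were not counted with letter pairs for these lists. Proteasome subunits had a median of −0.11 (36 tested, 0 called), cholesterol synthesis genes −0.08 (21 tested, 0 called) and cell cycle genes 0.02 (28 tested, 0 called).

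No gene of the non-coding RNA lists was called either. Of 88 tested C/D box snoRNAs, which guide 2′-O-methylation of ribosomal RNA, 71 had higher means in gRNA, 5 had an unadjusted p below 0.05 (beside 106 of 19430, 0.546%, over all genes), 0 were called and the median was 0.38. Of the 268 C/D box genes in the table, 127 had no count in any of the 12 libraries, so the list describes less than the family. SNORD21 (chromosome 1, 93302846 to 93302940) had 24.6, 80.1 and 31.7 normalised counts in gRNA KD A, B and C, 37.4, 59.5 and 45.4 in gRNA NTC, 29.1, 27.2 and 34.1 in pre-gRNA KD and 10.8, 30.7 and 24.9 in pre-gRNA NTC. The gRNA B libraries were the 2 highest, and the groups overlapped; the difference was 0.85 (SE 0.35, DESeq2 unadjusted p = 0.0158, adjusted p = 1). Summed over the list, gRNA KD B (6520 normalised counts) and gRNA NTC B (6130) stood above the other 10 libraries, which held 2890 to 4510. The letter medians were 0.01 in A, 0.8 in B and 0.08 in C, and with 3 principal components as terms the list median was 0.07.

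H/ACA box snoRNAs, which guide pseudouridylation, had higher means in gRNA for 40 of 49 genes, a median of 0.32 and 0 calls, with 0.12, 0.69 and 0.02 by letter and a median of 0.03 with the 3 components. Cajal body RNAs, which guide modification of spliceosomal RNAs, had a median of 0.08 (8 tested, 5 with higher means in gRNA, 0 called) and −0.26 within letter C, and snoRNA host genes had 0.01 (12 tested, 6 higher, 0 called). SNORA29 differed by 0.93 (SE 0.45, DESeq2 unadjusted p = 0.0371) with its highest value, 56.7, in gRNA KD B. Mature snoRNAs carry no poly(A) tail, so in poly(A) libraries these low counts also depend on how much non-polyadenylated or host RNA was carried over, and the part of this in the result was not tested. Transcripts of RNA polymerase III had a median of 0.43 over 9 tested genes, of which 0 were called, with 0.46 in letter A, −0.17 in B and 0 in C. RN7SL2, the RNA of the signal recognition particle, had 669 to 1230 normalised counts in gRNA and 353 to 976 in pre-gRNA libraries (difference 0.46, SE 0.27). RNU6-1, 1 of several near-identical U6 genes, had 2 to 17 counts in gRNA and 4 to 16 in pre-gRNA libraries (0.15, SE 0.48).

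Nuclear-retained long non-coding RNAs had a median of 0.24 over 11 tested genes with 0 calls. MALAT1 (chromosome 11, 65265159 to 65273987), which resides in nuclear speckles, had 1660, 10500 and 7090 in gRNA KD A, B and C and 1610, 8490 and 7810 in gRNA NTC. In pre-gRNA it had 3660, 3870 and 8040 in KD and 2940, 4430 and 7120 in NTC. Its lowest and its highest libraries were thus both gRNA, and the difference was 0.3 (SE 0.46) with −1 in letter A, 1.19 in B and −0.02 in C. Splicing factors of the SR family and their CLK kinases had a median of 0.16 (20 tested, 0 called); the smallest p was that of SRRM2, at 0.36 (SE 0.2, DESeq2 unadjusted p = 0.0728), and the largest difference that of SRSF1, at 0.54 (SE 0.32). Argonaute and microRNA processing genes had a median of 0.17 (18 tested, 0 called); XPO5, which exports precursor microRNAs from the nucleus, differed by 0.16 (SE 0.17) and AGO2 by 0.12 (SE 0.25). Clustered protocadherins, cell-surface recognition proteins whose genes share constant exons within a cluster so that reads of one member can count for others, had lower means in gRNA for 23 of 23 tested genes, a narrow range of −0.34 to −0.19 and 0 calls. Their letter medians were 0.03 in A, −1.02 in B and −0.14 in C.

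**Figure D4:**
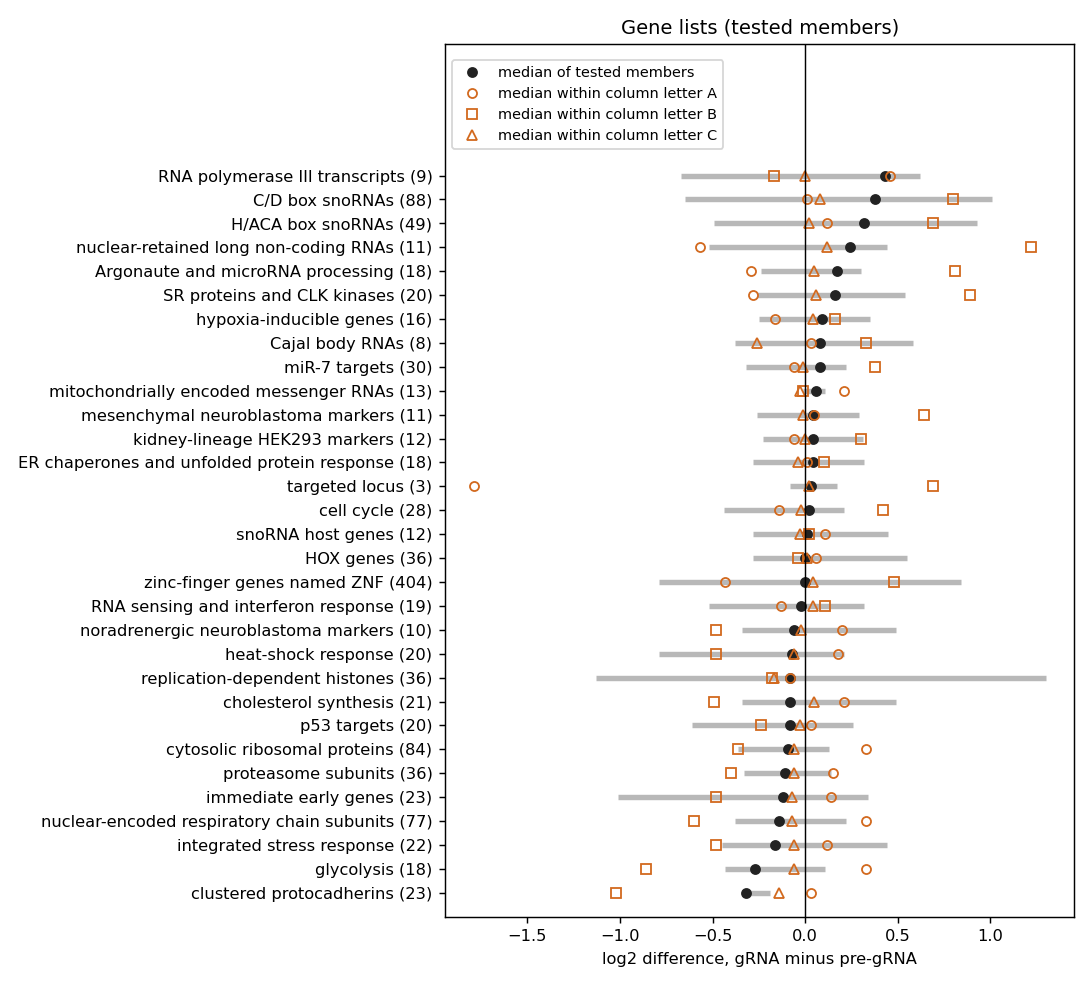
Log2 difference between gRNA and pre-gRNA libraries (horizontal axis) for 31 gene lists, with the number of tested members in brackets. Black points are medians, grey bars run from the lowest to the highest member, and open symbols are the medians within column letters A, B and C. The medians within letter B run from −1.02 to 1.22 and those within letter C from −0.26 to 0.12, beside −0.32 to 0.43 over all libraries; the value of −1.79 for the targeted locus in letter A rests on genes of few counts.

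No gene averaging 50 counts or more had all 6 gRNA libraries on one side of all 6 pre-gRNA libraries. Over all 19432 genes that passed the filter, 4 did (0.0206%), 2 in each direction (0.0103% each). The least overlapping are therefore named here after their values were seen. PTAFR, the receptor of platelet-activating factor, had 2.22 to 9.28 normalised counts in gRNA and 9.86 to 20.4 in pre-gRNA libraries, a difference of −1.19 (SE 0.41, DESeq2 unadjusted p = 0.00368, adjusted p = 1). RP11-35G9.3 had 25.3 to 38.1 against 39 to 47.5, RP11-357H14.4 had 14.3 to 21.8 against 7.47 to 11.6, and AP001468.1 had 42.9 to 58.4 against 29.5 to 41.9. All 4 were low, and 0 of them was called.

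Among genes averaging 50 counts or more, the one with the smallest p was ALS2CL, a guanine nucleotide exchange factor-like relative of alsin (chromosome 3, 46710487 to 46735194, minus strand), also named after its values were seen. It had 70.3, 102 and 82.2 normalised counts in gRNA KD A, B and C, 83, 81.5 and 80.4 in gRNA NTC, 36.8, 61.3 and 57.4 in pre-gRNA KD and 58.1, 53.4 and 74.7 in pre-gRNA NTC. A single gRNA library, KD A, lay below the highest pre-gRNA library. The difference was 0.55 (SE 0.21, DESeq2 unadjusted p = 0.00808, adjusted p = 1), with 0.72, 0.67 and 0.31 within letters A, B and C. With letter pairs as units the unadjusted p was 0.128. The non-coding RP5-984P4.6 differed by 0.61 (SE 0.24) and by 0.14, 1.18 and 0.49 by letter. PAN2, the catalytic subunit of a deadenylase that shortens poly(A) tails, had 925 to 1440 in gRNA and 840 to 978 in pre-gRNA libraries, a difference of 0.34 (SE 0.15). In the other direction the smallest p among these genes belonged to RP11-399O19.5, at −0.57 (SE 0.25), followed by OVGP1, an oviductal glycoprotein, at −0.53 (SE 0.25), both with the same sign in all 3 letters. ZNF79, a zinc-finger gene, had 37.8 to 146 in gRNA and 63.2 to 271 in pre-gRNA libraries, at −0.79 (SE 0.39).

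The 2 arms were also tested apart. Between the NTC groups, 0 of 18586 genes were called and 33 (0.178%) had an unadjusted p below 0.05. Between the KD groups, 0 of 18546 were called and 6 (0.0324%) had an unadjusted p below 0.05. Leaving out 1 library moved these counts to between 4 (without gRNA NTC B) and 2021 (without pre-gRNA NTC C) in the NTC arm and to between 0 (without pre-gRNA KD A) and 37 (without pre-gRNA KD C) in the KD arm, with 0 called each time. The difference of the guide-form effect between the arms was called for 0 of 19431 genes (15 unadjusted, 0.0772%; 3 without gRNA NTC B and 129 without pre-gRNA KD B). In a fit that took each setup and letter as a block, this interaction had 1243 genes with an unadjusted p below 0.05 and still 0 called. The glycolytic median was −0.48 in the NTC arm and −0.02 in the KD arm, and that of the C/D box snoRNAs 0.46 and 0.32; no member of either list was called for the difference between arms.

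The spread shrank when the first 3 principal components of the 12 libraries were added as terms, a fit chosen after seeing the data. In this fit 33 genes (0.17%) were called by DESeq2. The fitted difference was positive for 25 and negative for 8, which was not always the direction of the group means. RABL6 had a fitted 0.15 but means of 2800 normalised counts in gRNA and 2940 in pre-gRNA libraries. Over all genes, 1149 (5.91%) had an unadjusted p below 0.05. That unadjusted share is close to the 0.05 expected without any difference. The same terms in edgeR called 32, of which 26 were also among the 33. With the first component alone 0 were called (590 unadjusted, 3.04%). The fitted differences of the 33 were 0.15 to 0.75 in size on the log2 scale, all under 2-fold, and 13 of the 33 had the same sign in all 3 letters. The components were computed from the same counts, so these calls are not independent of the genes they adjust. The smallest adjusted p belonged to ATHL1, a glycosidase-like enzyme also called PGGHG, at 0.46 (SE 0.08, DESeq2 adjusted p = 1.66e-05). It had 555, 665 and 500 normalised counts in gRNA KD A, B and C, 462, 825 and 505 in gRNA NTC, 318, 599 and 343 in pre-gRNA KD and 380, 616 and 411 in pre-gRNA NTC, which is higher in gRNA in each letter and arm. CDK5RAP3 (0.27, SE 0.05) and RP5-984P4.6 (0.41, SE 0.08) also had the same sign in all letters. MAN2C1 (0.32, SE 0.06) and RP11-54O7.3 (0.46, SE 0.09), also called, did not, with −0.08 and −0.05 within letter B. Of the 8 with a negative fitted difference, AEN had −0.38 (SE 0.08) and BUD31, a spliceosome component, −0.26 (SE 0.06). The histone genes HIST1H2AC and HIST1H2BJ had −0.7 (SE 0.16) and −0.53 (SE 0.13).

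In 1 model of all 24 libraries, over 20172 genes, 0 were called between gRNA and pre-gRNA (143 unadjusted, 0.709%). In the same model 61 (0.302%) were called between gRNA and agoshRNA and 65 (0.322%) between pre-gRNA and agoshRNA, where the CasRx vector is absent. Between gRNA and syn-gRNA 2191 (10.9%) were called and between pre-gRNA and syn-gRNA 3615 (17.9%). These comparisons share libraries with each other, and whether their counts differ was not tested.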

How the data were processed

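Poly(A) RNA of 12 libraries (4 groups of 3) was analysed. Raw read counts per gene were deposited by the authors for 60658 genes; per the submitters' processing notes the tools were Trim Galore, STAR 2.7.3a, featureCounts and DESeq2, with hg19. Options and annotation are not given in the sources used here, and libraries were non-stranded per the labels. Count columns name setup, arm and a letter (A, B, C) that nothing links to the labels' replicate numbers. The 24 further columns of per-sample normalised values were not used.

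Genes that reached 10 counts in 3 or more libraries were tested with DESeq2 1.42.0 (R 4.3.3), Wald test, model of arm plus guide form, its size factors, Benjamini-Hochberg adjusted p below 0.05. The arms were tested apart and for their interaction. edgeR 4.0.16 and limma 3.58.1 were alternatives, with other scalings and filters, letter pairs as units, GC-dependent offsets (GC content from GENCODE release 29, found for 93.2% of genes) and libraries left out. Principal component terms, fits within a letter and the tests of library measures were chosen after seeing the data. The standard error covers the spread between libraries; the number of counts limits genes such as CDR1. Letter sums of squares and letter differences used log2 of normalised counts with a pseudocount of 0.5.

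The libraries compared and all gene lists were chosen with earlier results of these data known. Named genes followed a rule: the targeted locus, called genes without overlap, per list the most abundant member, the member of smallest p and called members, and RNU6-1, GAPDH, MALAT1, HSPA6 and DNAJB1. No gene met the part that needs a call; other genes were named after their values were seen. Gene lists were described without a test.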

Additional observations from a re-analysis of the deposited data

How the results depend on the processing

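Each of the 80 alternatives fixed for the 4 comparisons gave 0 called genes, including edgeR, limma-voom, TMM factors, other filters, GC-dependent offsets and all 18 fits of both arms that left out a library or a letter pair (range of called genes 0 to 0; unadjusted 47 to 1499). The left-out fits had 4 to 2021 unadjusted in the NTC arm, 0 to 37 in the KD arm and 3 to 129 for the interaction, with 0 called in each. Without both pre-gRNA C libraries 1499 genes, and without both gRNA A libraries 1375, had an unadjusted p below 0.05. The replicate numbers of the labels could not serve as a block, since the columns carry letters instead; with the column letter as a replicate block across setups 0 genes were called (244 unadjusted), and with setup and letter as a replicate block the interaction had 0. Of 6 alternatives chosen after seeing the data 3 gave 0, and the others were 33 (3 principal components), 32 (the same in edgeR) and 8918 (within letter B). Single genes were followed for 79 genes, namely the tested genes of the naming rule and further genes of small unadjusted p. The fits within a letter, among them that of letter B, were left out of this count. Under the other alternatives 37 of the 79 changed the sign of their difference. Of the 79, 5 passed the threshold under an alternative chosen after seeing the data. ATHL1, CDK5RAP3, BUD31, HIST1H2AC and HIST1H2BJ, called with 3 principal components, were not among the 79. Precision was limited by the spread between libraries of a group, and for CDR1, CDR1-AS, HSPA6 and most snoRNAs also by counts.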
